A study of Mus musculus with 60 samples.

Results

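H3K27me3 peak lists of mouse cells expressing the histone mutant H3R17C were compared with those of cells expressing wild-type histone H3 (H3WT). In H3R17C the arginine at residue 17 of the H3 tail is replaced by cysteine. The cells were C3H 10T1/2, an established line of mouse mesenchymal progenitors. Both groups carried a lentiviral transgene that encodes human H3.1 with HA and FLAG tags, was driven by an EF1 promoter and was selected with puromycin, and no change to the host H3 genes was described, so that every sample held tagged and host H3. Cells were transduced as cultures, and the sources used here describe no single clones. No further treatment and no other allele was named.

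The comparison took 5 of the 60 samples of the series, namely H3R17C replicates 2 and 3 and H3WT replicates 1, 2 and 3. The lists of H3R17C replicates 2 and 3 held identical values, as did those of H3WT replicates 1 and 2, and each pair was counted once. This left 1 independent H3R17C list against 2 independent H3WT lists. H3R17C replicate 1 was left out because its list carries the name of another mark, H3K27ac. Nothing in the labels says that the remaining lists came from separate cultures. With 1 list on the H3R17C side no test was run, and every value below is a description of these lists.

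Trimethylation of lysine 27 of histone H3 is laid down by the Polycomb repressive complex PRC2 and marks genes that are kept silent. Its broad domains cover the starts of genes for developmental transcription factors, often at promoters rich in CpG, in cells where those genes are off. In a mesenchymal cell these include many genes of neural, endodermal and cardiac development.

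Merging the peaks of the 3 lists gave 26254 regions, of which 11481 had a peak in all 3 lists. The level of a region in a list was its total peak signal, scaled so that the median over those 11481 regions was 1. A change is a difference of log2(scaled signal + 0.25), H3R17C minus the mean of the 2 H3WT lists. Regions were called lower or higher when the scaled signal of H3R17C lay at least 2-fold below or above both H3WT lists. They were called lost when both H3WT lists had a peak and H3R17C had none, and gained when only H3R17C had one.

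For each kind of change, 1 promoter rich in CpG and 1 poor in CpG are shown, to give the range of sequence at the starts concerned. They were picked among the named genes whose promoter overlaps no exon and are not typical of their class. Each is the 250 bases before a RefSeq start site in GRCm38, 5′ to 3′ on the strand of the gene, with every CpG in capitals. Tbx20 and Krtap5-3 stand at lower regions, Prdm16 and Arhgef3 at lost, Tc2n and Svs3b at higher, and Kank1 and Frmd4b at gained regions.
Tbx20 (chr9:24774304-24774553, minus strand): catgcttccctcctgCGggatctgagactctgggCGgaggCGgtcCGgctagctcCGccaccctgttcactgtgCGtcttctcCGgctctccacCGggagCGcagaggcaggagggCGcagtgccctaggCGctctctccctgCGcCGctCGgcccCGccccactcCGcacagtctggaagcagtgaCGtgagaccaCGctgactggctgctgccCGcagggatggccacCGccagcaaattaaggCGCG
Krtap5-3 (chr7:142201114-142201363, plus strand): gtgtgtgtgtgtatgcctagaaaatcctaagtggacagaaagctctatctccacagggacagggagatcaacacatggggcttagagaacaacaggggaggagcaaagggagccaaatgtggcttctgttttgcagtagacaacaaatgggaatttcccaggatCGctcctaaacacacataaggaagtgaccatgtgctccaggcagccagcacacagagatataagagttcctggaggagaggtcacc
Prdm16 (chr4:154636874-154637123, minus strand): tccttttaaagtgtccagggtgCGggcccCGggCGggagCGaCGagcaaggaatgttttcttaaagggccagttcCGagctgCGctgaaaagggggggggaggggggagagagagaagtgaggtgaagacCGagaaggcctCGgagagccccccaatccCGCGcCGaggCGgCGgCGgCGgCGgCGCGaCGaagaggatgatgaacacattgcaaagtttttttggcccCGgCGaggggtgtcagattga
Arhgef3 (chr14:27361139-27361388, plus strand): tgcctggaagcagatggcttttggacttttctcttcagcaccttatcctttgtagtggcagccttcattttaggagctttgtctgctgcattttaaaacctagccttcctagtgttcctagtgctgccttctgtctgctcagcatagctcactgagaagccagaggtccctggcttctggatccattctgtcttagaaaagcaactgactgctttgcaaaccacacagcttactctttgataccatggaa
Tc2n (chr12:101718524-101718773, minus strand): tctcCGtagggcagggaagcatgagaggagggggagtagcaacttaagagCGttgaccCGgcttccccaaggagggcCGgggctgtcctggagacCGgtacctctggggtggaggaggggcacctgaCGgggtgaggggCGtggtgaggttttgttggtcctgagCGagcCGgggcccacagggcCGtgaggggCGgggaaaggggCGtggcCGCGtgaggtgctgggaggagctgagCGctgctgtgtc
Svs3b (chr2:164256644-164256893, minus strand): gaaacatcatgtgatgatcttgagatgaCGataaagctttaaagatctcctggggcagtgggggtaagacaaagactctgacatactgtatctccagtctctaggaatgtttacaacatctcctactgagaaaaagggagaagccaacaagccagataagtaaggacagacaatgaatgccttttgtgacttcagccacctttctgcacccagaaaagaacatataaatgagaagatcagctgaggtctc
Kank1 (chr19:25236725-25236974, plus strand): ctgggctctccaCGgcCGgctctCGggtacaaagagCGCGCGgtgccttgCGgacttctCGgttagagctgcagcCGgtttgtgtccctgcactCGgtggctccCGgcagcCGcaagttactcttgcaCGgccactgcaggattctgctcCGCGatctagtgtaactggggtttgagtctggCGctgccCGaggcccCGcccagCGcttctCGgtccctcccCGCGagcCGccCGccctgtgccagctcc
Frmd4b (chr6:97459287-97459536, minus strand): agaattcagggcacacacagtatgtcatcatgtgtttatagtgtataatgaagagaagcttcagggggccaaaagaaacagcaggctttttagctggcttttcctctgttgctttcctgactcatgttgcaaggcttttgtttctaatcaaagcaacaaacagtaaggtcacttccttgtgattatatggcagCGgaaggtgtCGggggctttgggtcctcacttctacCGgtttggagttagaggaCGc
The Tbx20 promoter holds 22 CpG and that of Krtap5-3 1, that of Prdm16 22 and that of Arhgef3 0. Tc2n has 15 and Svs3b 1, and Kank1 24 and Frmd4b 4. Over all 32841 promoters of the RefSeq table the median was 6 CpG. It was 9 for the 85 promoters at lower regions, 7 for 291 at lost regions, 3 for 21 at higher regions and 4 for 131 at gained regions. It was 6 for 2589 promoters at regions called in all 3 lists that were neither lower nor higher. A promoter counted at a region need not lie inside it, and that of Frmd4b begins just beyond its gained region. The medians differ little beside the range shown within each class, and their differences were not tested.

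The H3R17C list held about as many peaks as the H3WT lists but covered less of the genome. It had 22253 peaks, beside 22083 in the list of H3WT replicates 1 and 2 and 20543 in that of replicate 3. Its peaks covered 82.7 Mb, against 103.6 and 98.6 Mb in H3WT (mean 101.1 ± 3.54 Mb, SD, n = 2 lists), and lay below both. The median peak of H3R17C was 2.45 kb wide, and those of H3WT were 3.05 and 3.15 kb wide. Peaks of at least 10 kb numbered 1156 in H3R17C and 1971 and 1838 in H3WT. The deposited signal is not scaled to a common depth, the study names different read totals for replicates whose lists are identical, so that no total could be tied to a list, and the lowest total signal of a peak was 4550 in H3R17C against 5800 and 6000 in H3WT. Shorter peaks and a lower depth cannot be told apart from these values.

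The covered sequence was nearly as alike between H3R17C and H3WT as between the 2 H3WT lists. The bases covered in common by H3R17C and H3WT were 0.541 and 0.528 of the bases covered by either, beside 0.583 between the 2 H3WT lists. Housekeeping genes and mesenchymal markers served to check the mark. None of 10 housekeeping genes, none of 14 mesenchymal markers such as Col1a2 and Twist1, and none of 7 cell cycle inhibitors had a region at a start. Of all 21938 protein-coding genes 3216 had one (14.7%), so that none in sets of this size is a weak check. Liver markers had a region at 6 of 8 genes and blood markers at 5 of 9.

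Changes in H3R17C over the regions called in all 3 lists are relative to the median region, which the scaling sets to 1 in each list. As deposited, the signal of these regions in H3R17C differed from H3WT by a median of -0.44 on the log2 scale, a shift that the scaling removes. Relative to it, changes ran from -0.79 at the 5th to 0.69 at the 95th percentile on the log2 scale. H3R17C lay below both H3WT lists in 3699 regions (32.2%), and above both in 4526 (39.4%). The median size of a scaled change was 0.27, beside a median gap of 0.26 between the 2 H3WT lists. Of 11481 regions 408 were lower in H3R17C (3.55%) and 185 were higher (1.61%). On the autosomes the shares were 3.91% and 1.49%. These counts depend on the scaling and the signal used, with 1237 lower and 27 higher for the signal as deposited, and 16 and 17 for the maximum signal of a peak. The regions nearest to the limit were 2.00033-fold and 1.99961-fold below the nearer H3WT list, so that it cuts through a continuous range.

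**Figure D1:**
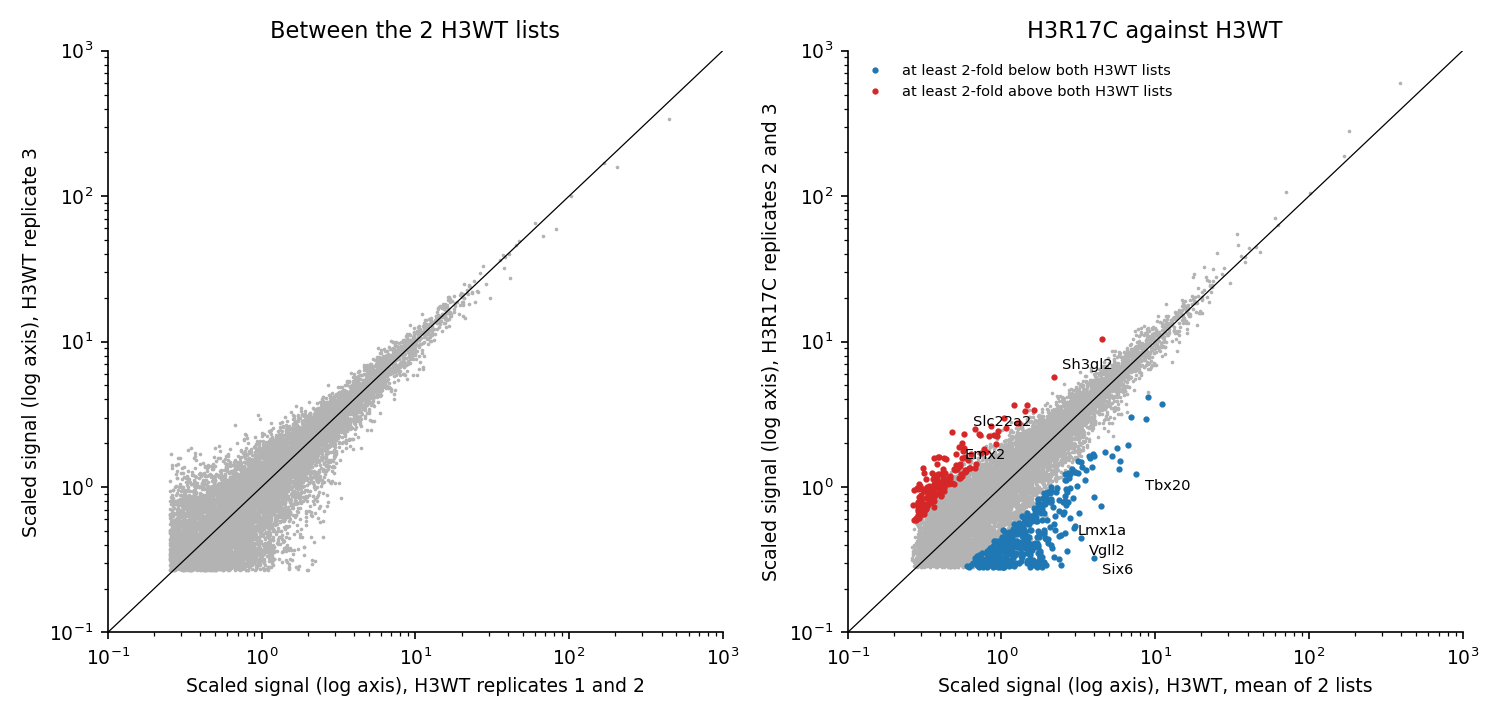
Scaled H3K27me3 signal of the 11481 regions called in all 3 lists, on log axes, between the 2 H3WT lists (left) and for H3R17C against the mean of the 2 H3WT lists (right). Each point is a region, the line marks equal signal, and the 408 lower and 185 higher regions are coloured. Six6 and Tbx20 lie far below the line, and Sh3gl2 and Slc22a2 above it.

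The lower regions, which were picked on summed signal, had both a shorter covered length and a lower highest signal in H3R17C. Their peaks covered a median of 6.40 and 6.53 kb in the H3WT lists and 1.85 kb in H3R17C, while the median of their highest signal was 12 in both H3WT lists and 8 in H3R17C. Over all regions called in all 3 lists, the covered length was 4.95 and 4.85 kb in H3WT and 4.05 kb in H3R17C, and the highest signal 12, 12 and 10. When a peak had to cover 50% of a region, 23 were lower and 21 higher.

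Of the 8 lower regions with a coding start described here, 3 lay at genes for transcription factors, Six6, Tbx20 and Lmx1a. The lowest relative to H3WT held the start of Six6, a homeobox factor of eye and pituitary development, together with that of 4930447C04Rik (chr12:72938451-72950500). Its scaled signal was 3.70 and 4.31 in the H3WT lists and 0.326 in H3R17C, a change of -2.88 on the log2 scale. The H3R17C value lay 12.3-fold below the H3WT mean and apart from both lists. The peaks covered 11.0 and 11.4 kb of the region in H3WT and 1.65 kb in H3R17C. Within 45 kb of the start, the single H3R17C peak downstream ran from 3.61 to 5.26 kb into the locus, so that the Six6 start itself had a peak in both H3WT lists and none in H3R17C. Upstream, the nearest H3R17C peak ended 22.8 kb before the start, while H3WT had further peaks that reached 2.79 and 1.59 kb before it.

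Tbx20, a T-box factor required for heart development, had the next lowest level (chr9:24762001-24782600). Its scaled signal was 7.14 and 7.99 in H3WT and 1.23 in H3R17C, a change of -2.40. Here H3R17C kept a peak of 4.95 kb just upstream of the start, where H3WT had 18.8 and 20.1 kb on both sides of it. That peak ended 0.397 kb before the start, so that the CpG-rich Tbx20 promoter shown above lay just outside it. The next region within the gene, which overlaps its exons (chr9:24744551-24760100), measured 3.33 and 3.41 in H3WT and had no peak in H3R17C. It was the strongest lost region without a gene start on the autosomes, chromosome 18 left out.

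**Figure D2:**
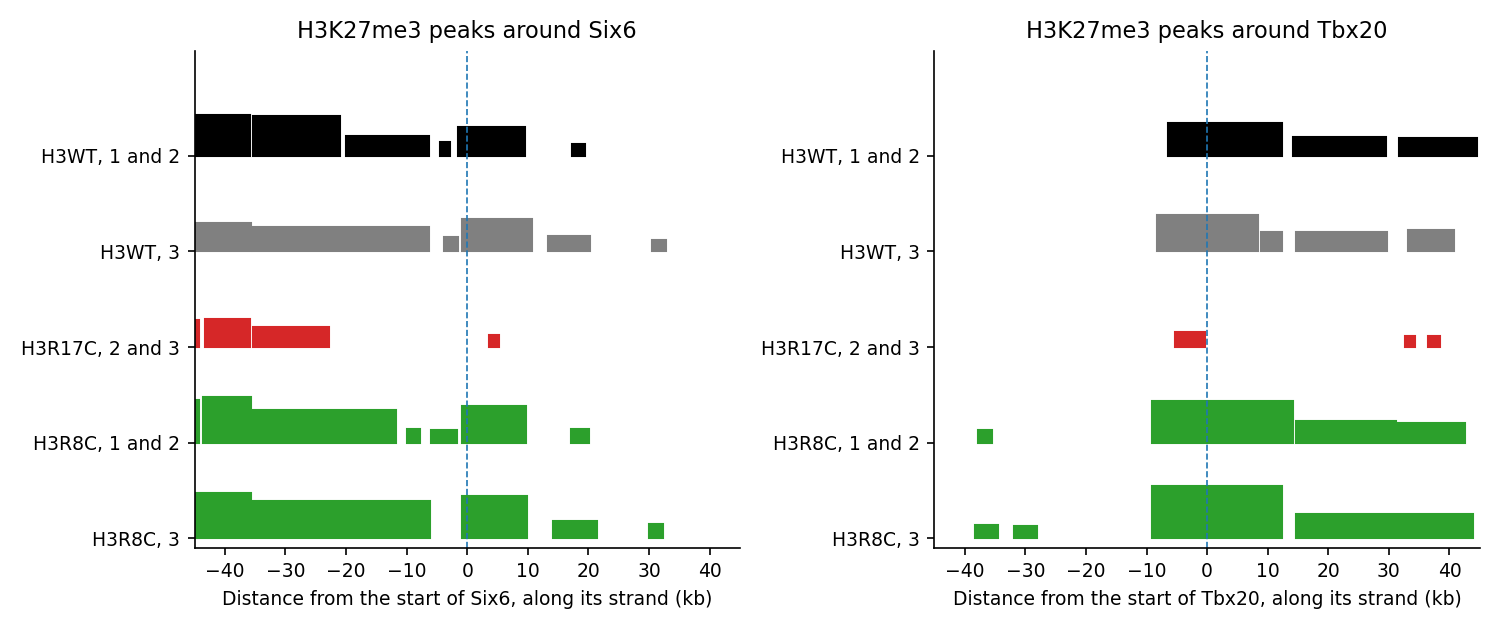
Peaks around the starts of Six6 (left) and Tbx20 (right), by distance from the start along the strand of the gene (kb). Each row is a list, each bar a peak, bar height is mean signal per bp (1 row spacing is 25), and the dashed line is the start. Near both starts H3R17C has a short peak that does not reach the start, where the other lists have peaks of about 10 kb or more across it. H3R17C keeps longer peaks upstream of Six6.

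Vgll2 encodes a cofactor of TEAD transcription factors in skeletal muscle. Its region (chr10:52019501-52032400) measured 2.95 and 3.60 in H3WT and 0.447 in H3R17C, a change of -2.33. Lmx1a, a LIM homeobox factor of the roof plate and of dopamine neurons, measured 2.95 and 2.61 in H3WT and 0.612 in H3R17C (chr1:167685601-167699800, -1.81). In both regions H3R17C lay apart from the H3WT lists, which differed little from each other.

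The other lower regions lay at genes of other kinds. A start of A830018L16Rik (chr1:11402351-11426050) measured 4.15 and 3.87 in H3WT and 0.857 in H3R17C (-1.94). Another region of the same gene, at chr1:11569051-11600000, measured 6.79 and 4.87 against 1.32 (-1.94). The region of Shank2, a scaffold protein of synapses, measured 1.90 and 2.28 against 0.398 (chr7:144167201-144179750, -1.85). A region with the starts of Gm10153 and Krtap5-3, a keratin-associated protein, measured 2.06 and 3.12 against 0.484 (chr7:142187651-142201450, -1.92). All 8 lower regions of the set were below both H3WT lists by construction, and none of their H3R17C peaks covered more than 5.50 kb.

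The higher regions had a median signal of 0.373 in H3WT, against 1.29 in the lower ones. The rule itself favours this contrast, since it sets H3R17C against these same H3WT values. The largest change belonged to Slc22a2, a transporter of organic cations in the kidney (chr17:12579951-12588800). It measured 0.328 and 0.821 in H3WT and 2.30 in H3R17C, a change of 1.70, and the peak covered 8.85 kb in H3R17C against 2.5 and 3.9 kb. Nsg1, a protein of neuronal endosomes, measured 0.304 and 0.474 against 1.60 (chr5:38157551-38163200, 1.54). Sh3gl2, the endophilin of synaptic vesicle recycling, had the highest level of the set, 2.54 and 1.83 in H3WT and 5.70 in H3R17C (chr4:85362451-85383050, 1.31). This region lies at another start of the gene, and its RefSeq promoter lay elsewhere, at chr4:85205206-85205455.

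Secretory and homeobox genes were also among them. Svs3b, a seminal vesicle protein whose promoter holds a single CpG, measured 0.915 and 1.15 in H3WT and 2.99 in H3R17C (chr2:164253301-164263400, 1.34). Sbpl measured 1.58 and 1.27 against 3.32 (chr17:23949051-23959250, 1.09). Tc2n was the one region of the set in which the peak was also clearly higher, with a maximum signal of 19 in H3R17C against 11 and 10. Its scaled signal was 0.676 and 0.488 in H3WT and 1.62 in H3R17C (chr12:101715301-101718800, 1.18). Asb2, a substrate adaptor of a ubiquitin ligase, measured 0.263 and 0.371 against 0.975 (chr12:103353751-103356950, 1.12). Emx2, a homeobox factor of the cerebral cortex and the urogenital tract, measured 0.460 and 0.562 against 1.37 (chr19:59455351-59460850, 1.10).

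H3R8C, in which another arginine of the tail is replaced by cysteine, has 2 independent H3K27me3 lists, and its values share the H3WT lists with H3R17C. For H3R8C, H3R2C and H3R26C the whole signal of each overlapping peak was taken, also where the peak extended beyond the region. At Six6 they measured 4.19 and 3.66, at Tbx20 10.3 and 8.98, and at the 2 regions of A830018L16Rik 4.59 and 4.26 and 6.5 and 5.4. These values were near or above H3WT, where H3R17C was far below. At Shank2 they measured 0.922 and 1.11 and at Lmx1a 1.48 and 1.87, between H3R17C and H3WT. At Emx2 neither H3R8C list had a peak, and at Sh3gl2 they measured 6.52 and 3.67, around the H3R17C value. At Slc22a2 they measured 1.31 and 2.17 and at Nsg1 0.878 and 0.997, above both H3WT lists as in H3R17C.

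Levels far from H3WT were also seen in the other mutants. Both H3R2C lists lay below both H3WT lists at every lower region named above. They had no peak at Lmx1a, and measured 0.252 and 0 at Vgll2 and 0.615 and 0.301 at Shank2. At the shorter region of A830018L16Rik neither had a peak, and at the longer they measured 0.638 and 1.10. At both, the H3R26C lists measured 4.24 and 4.50, and 6.87 and 7.02, above H3WT. At Krtap5-3 H3R2C measured 0.899 and 1.24, and H3R26C 0.269 and 0.413. At Six6 the H3R2C lists had no peak and the H3R26C lists measured 0.549 and 0, so that both mutants lay far below H3WT like H3R17C. At Tbx20 the H3R2C lists measured 2.39 and 2.07, also below H3WT, and the H3R26C lists 7.05 and 10.6. At Slc22a2 the H3R2C lists measured 1.55 and 1.78 and the H3R26C lists 1.96 and 2.05, all above H3WT. At Nsg1 they measured 2.67 and 1.8, and 1.45 and 1.58, again above H3WT. These comparisons share the H3WT lists.

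**Figure D3:**
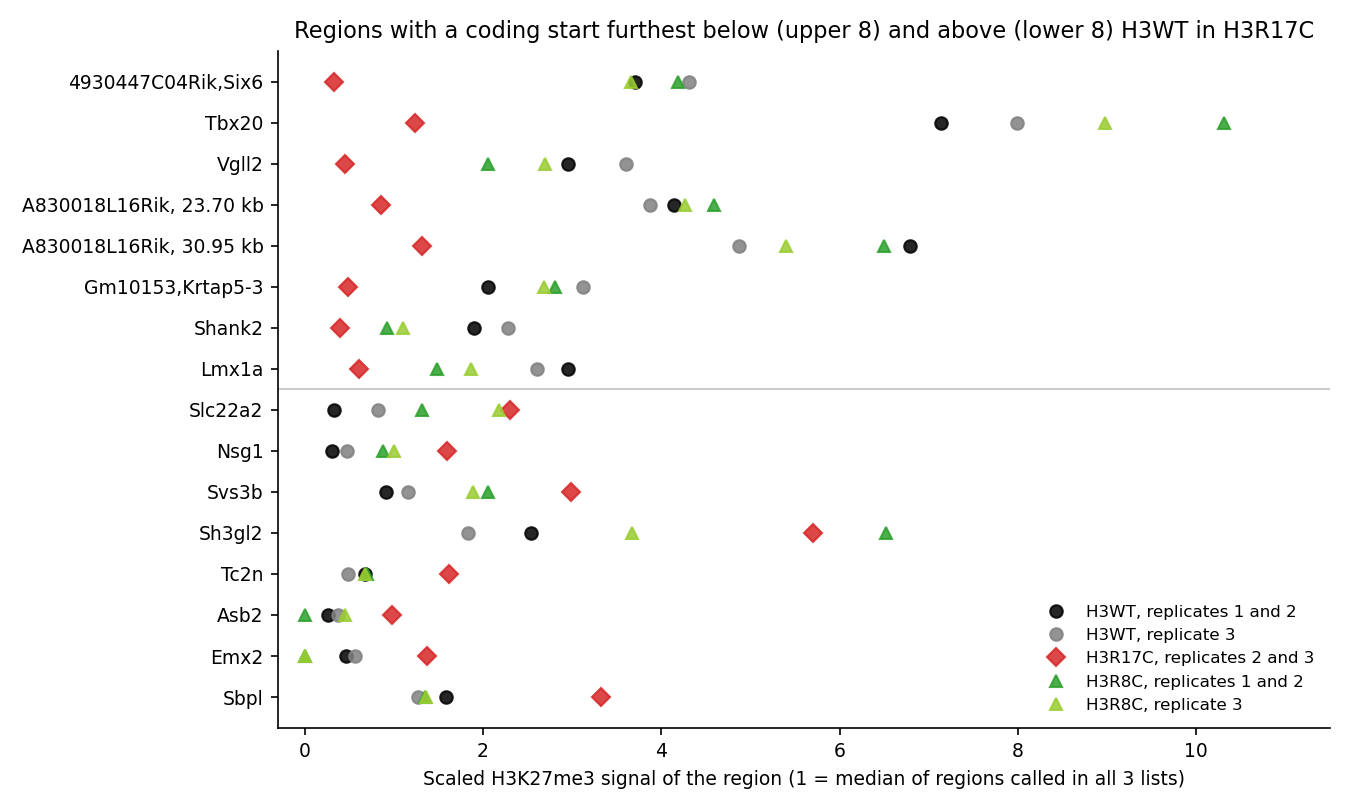
Scaled H3K27me3 signal per list in the 8 lower and 8 higher regions with a coding start, with the genes on the vertical axis. Circles are the 2 H3WT lists, diamonds H3R17C and triangles the 2 H3R8C lists. The H3R17C diamonds lie left of all other points in the upper 8, and in the lower 8 right of both H3WT lists.

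Peaks present in one group and absent from the other were short and weak for the most part. Of 14046 regions called in both H3WT lists, 2565 were lost in H3R17C (18.3%), and of 17378 called in H3R17C, 2854 were gained (16.4%). On the autosomes 19.1% were lost and 15.9% gained. Peaks found in a single list were as common in H3WT, with 3502 only in the list of replicates 1 and 2 and 2809 only in that of replicate 3. Regions shared by H3R17C and a single H3WT list numbered 1919 and 1124. Lost regions had a median length of 3.45 kb and gained regions of 1.85 kb, beside 6.25 kb for regions called in all 3 lists.

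Lost regions were mostly the shorter ones. Length was taken here from regions merged from the 2 H3WT lists alone, since H3R17C peaks can lengthen a kept region and not a lost one. Of those under 2.5 kb, 37.2% had no H3R17C peak, and the share was 28.1% at 2.5 to 5 kb, 9.74% at 5 to 10 kb and 1.52% at 10 to 20 kb. Each of the 639 regions over 20 kb had one. A lost region need not be empty, since H3R17C peaks were listed only from a scaled signal of 0.283. In 382 lost regions both H3WT lists measured at least 2 times that level, and 266 gained regions measured at least 2 times the lowest level of each H3WT list.

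The strongest lost regions held genes of several kinds. Entpd1, the ectonucleotidase CD39, measured 2.26 and 3 in H3WT over 10.3 and 12.7 kb, and had no peak in H3R17C (chr19:40723501-40736150). Its RefSeq promoters lay outside this region, at chr19:40612116-40612365 and chr19:40659520-40659769. Prdm16, a transcriptional regulator of brown fat and of stem cells, measured 1.54 and 2.63 (chr4:154635701-154644550). Bend4 measured 1.73 and 1.90 (chr5:67421451-67430700), and Arhgef3 1.96 and 1.55 (chr14:27352551-27362800). Ntrk3, the receptor for neurotrophin-3, measured 1.45 and 2.01 (chr7:78575201-78582400). H3R17C had no peak in any of them.

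The H3R8C lists differed among these loci. They had no peak at Prdm16 or Arhgef3, measured 0 and 0.512 at Entpd1, and kept 1.48 and 1.39 at Bend4 and 1.09 and 1.40 at Ntrk3. The H3R2C lists had no peak at Prdm16 or Bend4. They measured 0.202 and 0 at Entpd1, 0 and 0.256 at Ntrk3, and 0.799 and 1.13 at Arhgef3. The H3R26C lists measured 1.31 and 2.56 at Entpd1, 0.757 and 1.34 at Prdm16, and 1.47 and 1.97 at Bend4. At Ntrk3 they measured 1.53 and 1.72, and at Arhgef3 0.341 and 0. Another 2 lost regions without a gene start followed that next to Tbx20. One was intergenic (chr4:154743651-154756150), with 2.46 and 3.34 in H3WT, and the other overlapped exons of Itga4, an integrin subunit (chr2:79286851-79299350), with 2.12 and 2.70.

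Gained regions with a start were weaker than the lost ones. The Kank1 region (chr19:25236101-25241100) had no peak in H3WT and measured 1.13 over 5 kb in H3R17C. Kank1 is an adaptor between focal adhesions and the actin cortex, and its promoter is the one richest in CpG of those shown above. Frmd4b measured 0.910 (chr6:97454501-97459200), Gm4353 0.879 (chr7:116085201-116088500, with 1.31 and 1.48 in H3R8C), Dpp4, a cell surface peptidase, 0.835 (chr2:62353151-62357400), and H2-M10.1, a nonclassical MHC gene, 0.823 (chr17:36321501-36325300). Both H3R8C lists also had peaks at Frmd4b (0.313 and 0.720), Dpp4 (0.318 and 0.298) and H2-M10.1 (0.192 and 0.399). At Kank1 they measured 0 and 0.489. All H3R2C and H3R26C lists had a peak at Frmd4b and H2-M10.1, and H2-M10.1 measured 2.51 and 0.813 in H3R2C. At Kank1 both H3R26C lists had one (0.632 and 0.830), and the H3R2C lists had none. The RefSeq promoter of Dpp4 lay elsewhere, at chr2:62412232-62412481. The 3 strongest regions without a gene start had more signal. They lay in introns of Csrnp3 (chr2:66004101-66014200, 2.12) and of Gm33206 (chr3:29786851-29795450, 2.02), and over exons of the cartilage collagen gene Col9a1 (chr1:24215851-24224200, 1.96). At the last of these the H3R8C lists measured 1.99 and 2.20.

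Starts and tagged histone were distributed unevenly over the classes of region. A gene start lay within 1 kb of 31.7% of the regions called in all 3 lists, 31.1% of lower, 20.5% of higher, 18.5% of lost and 9.74% of gained regions. Peaks of HA, the tag of the transgene, overlapped 18.4% and 17% of the unchanged regions in the 2 H3R17C HA lists and 13.2% and 15.2% of the lower ones. The shares were 7.80% and 7.37% for lost and 7.95% and 6.62% for gained regions. Peaks of the 2 H3WT HA lists overlapped 16.9% and 18.5% of the unchanged regions and 13.7% and 14.7% of the lower ones. They overlapped 9.59% and 9.79% of the lost regions, and their shares for gained regions were also below those for unchanged ones. Tagged wild-type H3 was thus distributed unevenly over these classes as well, and not tagged H3R17C alone. Lost and gained regions were also shorter, and the part of length in these shares was not tested.

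Counted by gene, H3R17C had a peak of its own at the start of 2334 of 21938 protein-coding genes, and both H3WT lists had one at 2335. All 3 lists shared 1977 of them. Both H3WT lists had a start peak that H3R17C lacked at 358 genes (15.3%), and 127 genes had one in H3R17C and in neither H3WT list. With the summed signal of the regions at a start, 2344 genes were called in all 3 lists, of which 86 were lower (3.67%) and 24 higher (1.02%). Of 2590 genes called in both H3WT lists 246 were lost (9.5%), and of 2606 called in H3R17C 91 were gained (3.49%). H3R17C lay below both H3WT lists at 849 genes (36.2%) and above both at 819 (34.9%).

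The HOX genes, which set position along the body axis, kept their large domains in H3R17C with the exception of part of the Hoxa cluster. All 10 Hoxb genes lay in 2 regions, and the larger, with Hoxb1 to Hoxb9, measured 102 and 99.8 in H3WT and 105 in H3R17C. The 9 Hoxc genes lay in a single region of 169 in both H3WT lists and 187 in H3R17C. The Hoxd cluster had a median change of -0.10, with Hoxd13 at 21.7 and 21.5 against 20.2, and Hoxd1 at 4.36 and 4.14 against 6.17. In the Hoxa cluster 4 of 11 genes had a region. Hoxa11 and Hoxa13 shared one of 11.4 and 11.7 in H3WT and 8.18 in H3R17C. Hoxa10 measured 0.409 and 2.13, and neither it nor Hoxa9 had a region in H3R17C.

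T-box genes, which encode factors of mesoderm and limb development, held the largest share of lower members among the gene families with at least 3 genes called in all 3 lists. Of 9 such T-box genes 3 were lower, against 3.67% of all genes, and the median change was -0.25. Besides Tbx20 they were Eomes, with 1.12 and 1.52 in H3WT and 0.388 in H3R17C, and Tbx22, with 1.03 and 0.915 against 0.323, which are named because their values were seen. Tbx22 lies on chromosome X, where the 2 H3WT lists differ from each other. The median was -0.0895 on the autosomes, -0.0984 with the upper 50% of peaks and -0.12 without H3WT replicate 3. The family did not move as one. Tbx5 measured 5.11 and 5.01 against 5.03, and Tbx19, with the highest change at 0.86, measured 1.01 and 1.66 against 2.57.

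Sox genes, factors of neural and germ layer fate, were below both H3WT lists at 8 of 8 genes, with a median change of -0.39 and none past 2-fold. The lowest was Sox10, the neural crest factor, with 1.08 and 1.92 in H3WT and 0.606 in H3R17C (-0.99). The highest was Sox14, with 10.1 in both H3WT lists and 8.97 in H3R17C (-0.17). Without H3WT replicate 3 the median of the family was -0.18, and -0.12 with the maximum signal.

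Nkx homeobox genes were below both H3WT lists at 9 of 11 genes, with a median of -0.34 and none past 2-fold. Nkx1-2 was lowest, with 0.921 and 1.65 in H3WT and 0.615 in H3R17C (-0.79), and Nkx2-4 was highest, with 2.63 and 2.11 against 2.62 (0.14). Without H3WT replicate 3 the median was -0.13. Over all genes the share below both H3WT lists was 36.2%, as given above.

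Other developmental families stayed near 0. The median change was -0.08 over 6 Pax genes, from Pax1 at 5.91 and 5.39 against 3.89 to Pax2 at 60.3 and 65.4 against 63.5. It was -0.06 over 12 forkhead genes. Among these Foxb2 had the highest change (0.258 and 1.69 against 1.43), and Foxa3, with 0.755 and 0.949 in H3WT, was lost. Proneural bHLH genes had a median of -0.08 over 12, with Bhlhe22 lowest (2.12 and 1.81 against 0.947) and Ptf1a highest (8.37 and 7.69 against 9.28). The median was 0.03 over 12 Wnt ligands, from which Wnt1 (0.339 and 1.09 in H3WT) was lost, while Wnt7a measured 26.3 and 27.4 against 31.1.

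Smaller sets gave single values rather than a pattern. In the family of Six6, the other gene called in all 3 lists was Six3, a factor of the forebrain and eye, which measured 16.7 and 18.8 in H3WT and 19.7 in H3R17C. The median was 0.03 over 5 Lhx genes and Lhx8 (0.639 and 0.436) was lost, and Lhx3 was highest at 0.24. Irx genes had a median of -0.05 over 3, with Irx4 at 7.97 and 8.31 against 6.08. Gata4, a factor of heart and gut, measured 14.0 and 13.7 against 8.57, and Gata5 4.64 and 6.88 against 4.72. Dlx4 measured 2.53 and 4.14 against 1.52.

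Ligands and guidance genes showed changes of both signs. The median was -0.05 over 5 Fgf ligands and -0.24 over 4 Bmp and Gdf ligands, and none of either was lower or higher. Fgf12 measured 0.632 and 0.729 against 0.835, and Bmp10 1.46 and 1.17 against 1.44. Plxna4, a semaphorin receptor, measured 0.928 and 0.671 in H3WT and 1.68 in H3R17C (0.89), and Plxnc1 4.08 and 4.99 against 4.46. The median was -0.38 over 2 protocadherins outside the clusters, of which Pcdh8 measured 7.33 and 7.29 against 4.67. Among receptor channels for glutamate, GABA and glycine the median was 0.07 over 9, Gabrq (0.842 and 0.640) was lost, and Gria4, at 0.593 in H3R17C, and Glra4 were gained.

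**Figure D4:**
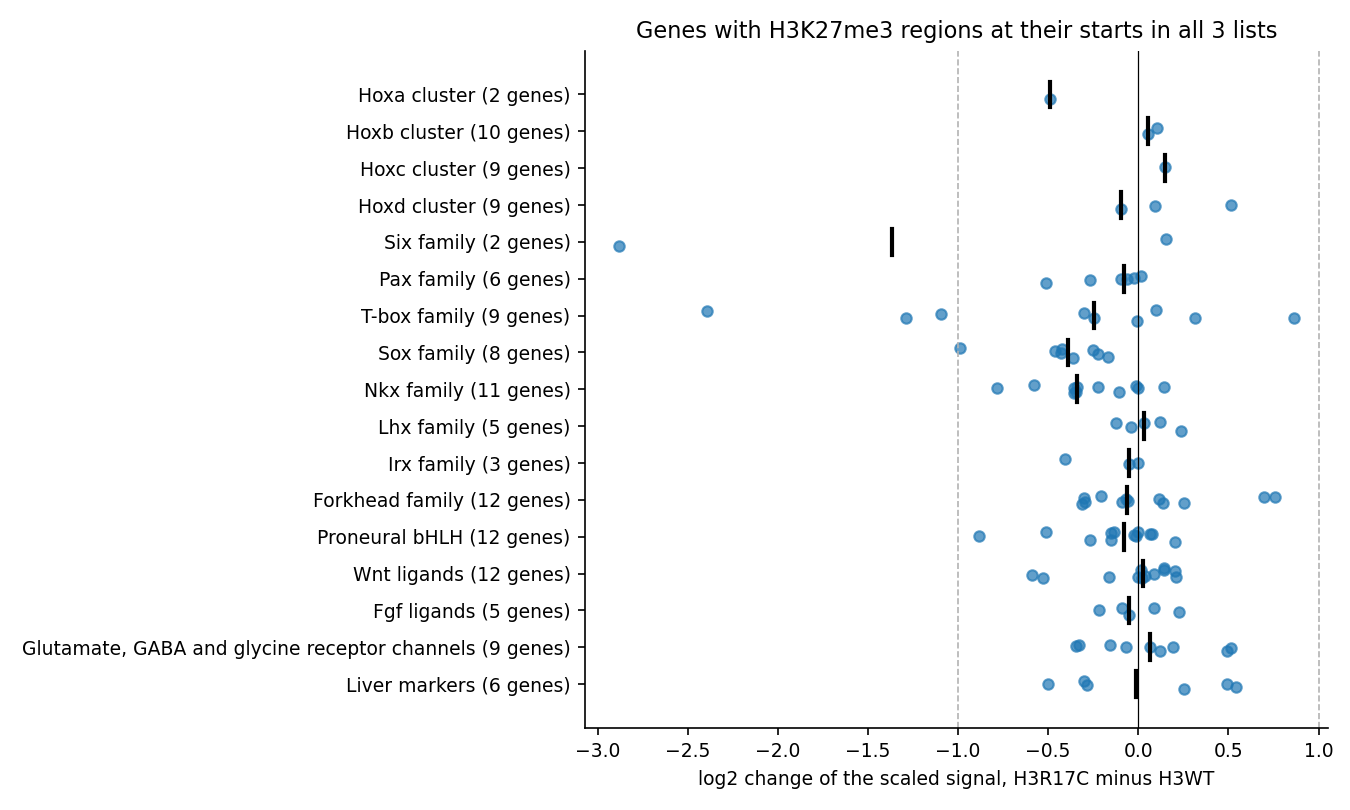
Change of H3K27me3 in H3R17C from H3WT (log2 scale) for 17 gene lists, over genes with regions at their starts in all 3 lists. Each point is a region or set of regions, black bars are medians over genes, and dashed lines mark 2-fold. Six6 and 3 T-box genes lie beyond the left line, and all 8 Sox points lie left of 0.

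Of 38 genes of the cartilage, bone, fat and muscle lineages, 6 had a region (15.8%), beside 14.7% of all protein-coding genes. Cartilage genes had 3, with Acan, the aggrecan gene, at 4.03 and 4.05 in H3WT and 6.86 in H3R17C (0.73), and Col9a1 at 8.60 and 8.08 against 9.86. Bone and fat genes had 1 each. Sost, an inhibitor of bone formation, measured 5.67 and 7.03 against 7.20, and Lep, which encodes leptin, 2.16 and 2.83 against 2.12. Myod1, the only myogenic bHLH gene with a region, measured 1.44 and 1.79 against 1.82.

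Liver markers had a median of -0.01 over 6 genes, from Alb (10.6 and 7.99 against 6.43) to Hnf4a (1.32 and 3.13 against 3.10), and none was lower or higher. Blood markers had a median of -0.01 over 4, from Ptprc (2.37 and 1.87 against 1.09) to Cd4 (0.672 and 0.642 against 1.01). Imprinted genes had a median of -0.23 over 5, with Gnas highest (0.411 and 1.07 against 1.35). Of 14 genes for PRC2 subunits and partners, Epop had a peak in a single H3WT list, and Phf19, at 0.311 in H3R17C and absent from H3WT, was gained. Of 10 loci named in an earlier account of these data, 8 had a region, 3 of them lower. That list was chosen on these data and is not independent. Its other members include Casd1 (1.43 and 0.425 against 0.447), Sim2 (6.60 and 7.31 against 4.92) and Myh13 (6.23 and 5.65 against 6.50), and Enho and Sult1c1 had no region.

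By chromosome, the change in H3R17C was lowest on chromosome 14. The median over its 502 regions was -0.26, beside 0.01 over all autosomes, and 44 of the 502 were lower (8.76%) and 1 higher. Of regions called in both H3WT lists 28.0% were lost and of those in H3R17C 6.63% were gained. Peaks on chromosome 14 covered 5.31 and 5.23 Mb in H3WT and 3.24 Mb in H3R17C. The H3R8C lists had medians of 0.03 and 0.00 there. Gata4, Gdf10, Pcdh8 and Nkx2-6, each below both H3WT lists, lie on this chromosome, with Gdf10 at 4.11 and 5.07 against 2.75 and Nkx2-6 at 4.58 and 4.94 against 3.10.

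Chromosomes 13, 9 and 1 were the next lowest, and the remaining autosomes lay between -0.04 and 0.16. Chromosome 13 had a median of -0.17, with 29.5% of regions lost, and the H3R8C lists had -0.28 and -0.31. On chromosomes 9 and 1 the median in H3R17C was -0.12 and -0.11, with 7.49% and 7.01% of regions lower, and the H3R8C medians were between 0.02 and 0.07. Among autosomes chromosome 12 was highest at 0.16, although it holds Six6. On chromosome X the median was 0.22, but there the 2 H3WT lists themselves differed by a median of -0.33 (replicate 3 minus replicates 1 and 2), and they covered 17 and 10.5 Mb against 12.5 Mb in H3R17C. Whether the number of copies of a chromosome differed between the cultures was not tested.

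**Figure D5:**
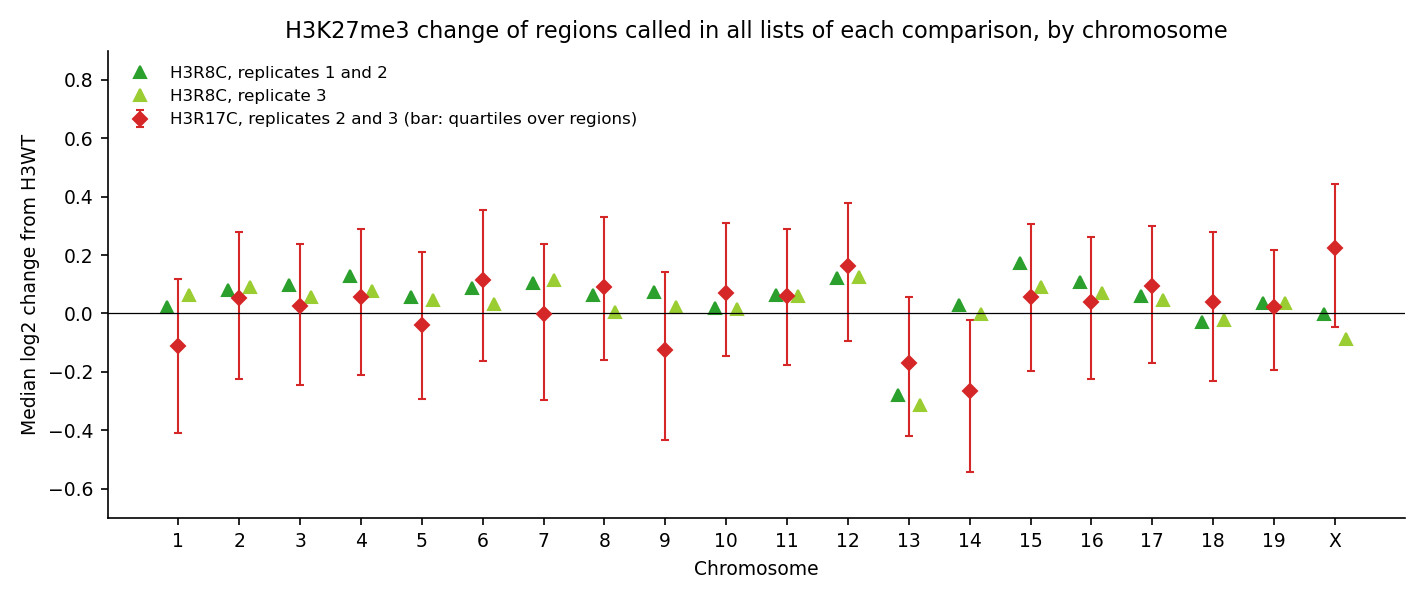
Median log2 change of H3K27me3 from H3WT by chromosome. Diamonds are H3R17C with quartiles over regions as bars, and triangles are the 2 H3R8C lists, each over the regions it shares with both H3WT lists. Chromosome 14 is lowest for H3R17C at -0.26 and near 0 for H3R8C, and chromosome 13 is below 0 for all 3 lists.

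As a whole the counts in H3R17C were of the size found for a single H3R8C list treated the same way. Set singly against the same H3WT lists, the 2 H3R8C lists had 2336 and 2033 regions lost (17% and 15.2%) and 4145 and 3471 gained (22% and 19.3%). They had 574 and 522 regions lower (5.04% and 4.61%) and 215 and 234 higher (1.89% and 2.07%), beside 408 and 185 in H3R17C. H3R8C covered 96.9 and 108.5 Mb and had 1724 and 2326 peaks of at least 10 kb, more than the 82.7 Mb and 1156 peaks of H3R17C.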

How the data were processed

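CUT&RUN, in which an antibody directs a nuclease to chromatin, was run by the authors, and the series used here holds 4 antibodies on 5 genotypes. The authors mapped single-end reads to mm10 (Rsubread) and made 1 peak list per sample by SEACR 1.3 (stringent, normalised, threshold 0.01). ChIPseeker 1.28.3 and DESeq2 are in the submitters' processing notes. How reads were filtered and duplicates handled is not given in the sources used here. Total signal and maximum signal are columns of the deposited lists, the first being coverage summed over bp, and the authors scaled neither to a common depth. Read totals were not tied to lists, which leaves counting error without an interval, and the gap between the 2 H3WT lists is the measure of precision. SEACR keeps a top share of blocks in each list, so peak numbers are set partly by the caller.

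Groups and replicate numbers came from the sample titles. Identical lists were counted once. Peaks of the 3 lists were merged where they overlapped or touched, and a region took the summed total signal of its peaks, or 0, relative to the median of the regions that all 3 lists called. No test was run. A gene took the regions within 1 kb of any start (GENCODE M21), which need not be its RefSeq start. Promoters came from the RefSeq table for GRCm38.p6, of whose 27018 genes 16517 matched a protein-coding gene of GENCODE. H3R8C lists entered one by one, and H3R2C and H3R26C lists at named loci only. The IgG and H3K4me3 reactions were not used. Python 3.11.15, pandas 2.3.3 and numpy 2.4.6 were used, and the calls were checked on simulated lists.

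Members, the 33 gene lists and the rules were chosen with earlier results of these data known. Regions were named on all autosomes but chromosome 18. They were the 8 lowest and 8 highest past 2-fold with a coding start, and the 5 strongest lost and gained with such a start and 3 without any gene start. The lowest and highest member of each gene list were also named. Alternatives changed the signal, scaling, pseudocount, fold, filter, merging, overlap and lists used.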

Additional observations from a re-analysis of the deposited data

Results flagged for a closer look

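At 4 of the named regions H3R17C and both H3R8C lists lay on opposite sides of both H3WT lists, with whole H3R8C peaks taken. The difference was not tested, and both mutants share the H3WT lists. The region of Tbx20 had a log2 change of -2.40 in H3R17C, with 1.23 beside 10.3 and 8.98 in H3R8C and 7.14 and 7.99 in H3WT. The lost region in the same gene had -3.85, from 0 in H3R17C with the pseudocount, beside 3.85 and 5.73 in H3R8C. The H3R8C peak of replicate 3 ran from 14.7 to 44.0 kb past the start, where the H3WT peaks of this region ended at 29.6 and 29.8 kb. The value of 5.73 thus includes signal from outside the region, and the side of H3WT on which H3R8C lay within it is not settled. At the shorter region of A830018L16Rik the change was -1.94, with 0.857 in H3R17C beside 4.59 and 4.26 in H3R8C. The H3R2C lists had no peak there. They were also low at the first of the Tbx20 regions (2.39 and 2.07) but measured 4.37 and 3.61 at the lost one. At Emx2 the change was 1.10, with 1.37 in H3R17C and no peak in either H3R8C list. The H3R2C lists measured 0.659 and 1.16 at Emx2, also above both H3WT lists (0.460 and 0.562), and the H3R26C lists 0.229 and 0.

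The list of H3R17C replicate 1, which was left out, had peaks at genes where the lists compared had none. It had a peak at the start of 9 of 10 housekeeping genes and of 12 of 14 mesenchymal markers, where the H3WT lists and the H3R17C list of replicates 2 and 3 had 0. It listed 37092 peaks, 1.55 kb wide at the median, and had a start peak at 9336 protein-coding genes. None of the Hoxb, Hoxc and Hoxd genes had a start peak in it. The bases it shared with the H3WT and H3R17C H3K27me3 lists were between 0.0024 and 0.0029 of those covered by either. It is labelled H3K27me3, its list is named for H3K27ac, and which is right was not tested.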

How the results depend on the processing

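No paired analysis was possible because the comparison has 1 independent H3R17C list and no test. In all, 17 alternatives were tried, and the setting of chromosome medians to 0 was chosen after seeing the data. The 32 named regions kept their direction under 16 of them. They were picked for extreme change, and those lost or gained had no signal on 1 side, so that a reversal was unlikely. The 4-fold limit and the signal filter cannot alter these changes. Their size moved beyond the H3WT spread of the region in 31 with the maximum signal, 28 with 50% overlap and 27 with the upper 50% of peaks. With the maximum signal Six6 changed by -0.98 and Tbx20 by -0.57, and merging within 1 kb took Krtap5-3 to -0.68. Beside 2565 lost, 2854 gained, 408 lower and 185 higher regions, the upper 50% of peaks gave 1227, 1293, 180 and 41, and a covered length of H3R17C minus H3WT of -14.8 Mb. Requiring peaks over 50% of a region gave 3901 lost, 23 lower and 21 higher. A mean scaled signal of at least 0.25 gave 1623 lost and 72 gained. The maximum signal gave 16 lower and 17 higher, with a Sox median of -0.12, and a 4-fold limit 43 and 1.

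The signal as deposited gave 1237 lower and 27 higher, and medians of -0.66, -0.54, -0.51 and -0.50 on chromosomes 14, 13, 9 and 1. Medians of the Sox, Nkx, T-box, Pax, proneural, Wnt and forkhead lists were then -0.74, -0.77, -0.64, -0.53, -0.55, -0.42 and -0.49. With 1 H3WT list left out, lost regions ranged from 5986 to 6708, gained from 4387 to 5386, lower from 822 to 982 and higher from 749 to 901. The list medians ranged from -0.44 to -0.18 for Sox, -0.32 to -0.13 for Nkx and -0.26 to 0.01 for Pax genes. Setting chromosome medians to 0 left -0.0525 on chromosome 14 and 414 lower and 141 higher regions.

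Adding H3R17C replicate 1, which differs in its peaks from the lists compared, left 27 gained, 2 lower and 0 higher regions. The difference in peaks of at least 10 kb became -1216.5. It reversed chromosomes 13 (0.27), 9 (1.27) and 1 (1.24), moved chromosome 14 to -0.45, and reversed Slc22a2 (-0.18), Nsg1 (-0.0876), Svs3b (-0.68), Sh3gl2 (-1.15), Tc2n (-0.43), Asb2 (-0.20), Emx2 (-0.42) and Sbpl (-0.99). The cause of these shifts was not tested. The part of depth in the short lost and gained regions was not tested.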
